A study of Mus musculus with 9 samples.

Results

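The genes that make cholesterol, sense it and move it between membranes were followed through the transcriptome of whole newborn mouse lenses. The 28 genes were chosen by symbol, and all 28 were found among the 47729 genes of the tables and among the 15557 genes with enough counts to be tested. They comprise 7 genes of the mevalonate arm, 11 genes of the squalene and sterol arm, 5 genes of SREBP control and 5 genes of sterol transport.

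The lenses came from non-transgenic *FVB/N* mice, from hemizygous *P0-3.9GFPCre* mice and from hemizygous *Le-Cre* mice, all on the *FVB/N* strain and all collected at postnatal day 0. Both transgenes express CRE recombinase together with GFP from the P0 promoter of *Pax6*, which is active in the surface ectoderm that forms the lens, and the labels name no floxed allele. The *Le-Cre* line in use goes back to 1 founder. There were 3 pools of each line, made of 6 lenses from 3 mice, so that every value is an average over mice. The question was whether carrying a CRE transgene alone changed the expression of these genes, and the *FVB/N* pools served as the controls for both transgenic lines.

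Library totals ranged from 20670968 to 28098059 expected counts. Crystallin genes took 39.1% to 43.0% of each library, and lens fibre markers were abundant in every pool. Summed markers of cornea did not exceed 0.164 CPM (counts scaled to library size) in any pool, and those of retina did not exceed 8.19 CPM. Markers of other tissues were higher. Their sums reached 120 CPM for blood (*Le-Cre* replicate 2), 86.9 CPM for endothelium (*FVB/N* replicate 3) and 41.5 CPM for pigmented tissue (*FVB/N* replicate 2). Macrophage markers reached 4.22 CPM (*P0-3.9GFPCre* replicate 3). Summed Y-linked transcripts, which follow the share of male mice in a pool, differed between lines, with 126 to 194 CPM for *FVB/N* pools, 1.66 to 135 CPM for *P0-3.9GFPCre* pools and 0.633 to 71.9 CPM for *Le-Cre* pools. The 5 lens epithelium markers, none of them at 0, summed to 547 to 567 CPM for *FVB/N* pools, 474 to 555 CPM for *P0-3.9GFPCre* pools and 457 to 499 CPM for *Le-Cre* pools. Replicate 1 of *P0-3.9GFPCre* stood apart in its crystallin share and in the enzymes of the pathway. The medians of the enzymes and of the mevalonate arm are given with and without it. Other values of *P0-3.9GFPCre* include it unless stated. In pooled whole lenses, fewer cells of a type and less RNA per cell cannot be told apart.

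Lens fibre cells have plasma membranes that are unusually rich in cholesterol, and the mature lens, which has no blood supply, makes cholesterol itself. Cells build cholesterol from acetyl-CoA through mevalonate, squalene and lanosterol. When sterols are scarce, SCAP carries the SREBP factors to the Golgi for cleavage and they activate genes of the pathway, whereas sterols and the INSIG proteins hold SCAP back in the endoplasmic reticulum. Inherited defects of several of these enzymes, including those encoded by *LSS*, *EBP* and *DHCR7*, are associated with cataract in humans.

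SREBP factors act on promoters together with NF-Y, which binds inverted CCAAT boxes, and with SP1, which binds GC boxes. RefSeq promoters on GRCm38.p6 were matched for 22 of the 28 genes, and the 250 bases before each start were searched on both strands. No promoter was matched for *Fdft1*, *Fdps*, *Sqle*, *Abcg1*, *Npc1* and *Stard4*, so the shares given here do not cover them. Each gene was counted once, as a match if any of its promoters held the letters. The letters TCACNCCAC of one form of the sterol regulatory element occurred for 1 of the 22 genes, against 1.22% of all 27025 genes with promoters. The inverted CCAAT box ATTGG occurred for 19 of the 22, against 37.5% of all these genes and 40.6% of the 10514 tested among them. The GC box GGGCGG occurred in 21 of the 22, against 35.4% and 63.5%. The 3 genes without ATTGG were *Abca1*, *Acat2* and *Scap*, and the gene without GGGCGG was *Pmvk*. A match is a description of the letters and not of a bound site.

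The windows of 30 bases listed here show these letters in genes whose pool values are given further on, and each lies within the 250 bases before the RefSeq start used in the promoter table. The windows of *Cyp51* and *Tm7sf2* lie inside the GENCODE bounds of those genes, which begin further upstream. All windows are written 5′ to 3′ on the strand of the gene, and capitals mark the sterol regulatory element in the first, and ATTGG or its reverse complement CCAAT in the others.
*Hmgcs1*, chr13:119690204-119690233, plus strand: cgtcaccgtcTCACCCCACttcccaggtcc
*Hmgcs1*, chr13:119690294-119690323, plus strand: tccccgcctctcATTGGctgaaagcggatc
*Mvk*, chr5:114444190-114444219, plus strand: cttgaagttcccATTGGttaatgtttgacc
*Mvd*, chr8:122443465-122443494, minus strand: ggcctgtcgcctATTGGacagcacgggaaa
*Lss*, chr10:76531531-76531560, plus strand: ggtgatgctctgATTGGccgagctcgcatc
*Cyp51*, chr5:4104709-4104738, minus strand: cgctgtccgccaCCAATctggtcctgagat
*Tm7sf2*, chr19:6067880-6067909, minus strand: ctcccagcgctgATTGGctactgtgctggg
*Nsdhl*, chrX:72918400-72918429, plus strand: agcccgcttcccATTGGtttgggaacgaag
*Insig1*, chr5:28071184-28071213, plus strand: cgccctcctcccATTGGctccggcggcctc
*Insig2*, chr1:121332618-121332647, minus strand: acatcccctgccATTGGtcaccttccacac
*Srebf2*, chr15:82147122-82147151, plus strand: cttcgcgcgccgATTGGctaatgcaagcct

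All 28 genes were expressed in the newborn lens. By TPM, which is scaled for transcript length and so can be compared between genes, the mean over the 9 pools ran from 0.807 for *Abcg1* to 95.4 for *Fdps*. The 3 highest genes were *Fdps*, the farnesyl diphosphate synthase at the branch towards prenylated proteins, with 95.4 ± 9.42 TPM (SD, n = 9), *Cyp51*, the lanosterol demethylase, with 84.0 ± 8.07 TPM, and *Hmgcs1*, the cytosolic HMG-CoA synthase, with 55.7 ± 6.39 TPM. *Fdps* and *Cyp51* overlapped in their ranges, 80.5 to 112 TPM against 74.1 to 96.1 TPM. The highest *Hmgcs1* pool, 71.3 TPM, lay below the lowest *Cyp51* pool.

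The regulators *Srebf1* and *Insig1* followed at 38.6 ± 2.71 and 36.4 ± 4.31 TPM, with overlapping ranges. By TPM, *Srebf1*, whose product mainly drives fatty acid genes, stood well above *Srebf2*, whose product mainly drives cholesterol genes and which was at 13.99 ± 0.810 TPM. The highest *Srebf2* pool, 15.2 TPM, lay below the lowest *Srebf1* pool, 34.4 TPM. By CPM, which is not scaled for length, *Srebf1* was the lower of both genes in every pool. The means in *FVB/N* were 57.5 CPM for *Srebf1* and 64.5 CPM for *Srebf2*. The order by TPM thus rests on the transcript lengths that RSEM assigned. *Insig2* was at 13.3 ± 2.57 TPM and *Scap* at 11.1 ± 1.96 TPM.

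Among the other enzymes, *Fdft1*, *Msmo1*, *Idi1*, *Dhcr7*, *Sqle* and *Pmvk* had means from 20.4 to 28.2 TPM. *Lss*, the lanosterol synthase that closes the sterol rings, had 13.5 ± 1.26 TPM, close to *Srebf2*. *Hsd17b7*, a reductase of the demethylation steps, was the enzyme of lowest level with 3.73 ± 0.700 TPM. Sterol transport genes were lower on the whole, from the lysosomal sterol carrier *Npc2* at 10.9 ± 0.423 TPM to the efflux pumps *Abca1* and *Abcg1* at 0.934 ± 0.384 and 0.807 ± 0.186 TPM. The ranges of both efflux pumps overlapped, and the lowest pool of *Abcg1* still held 47 expected counts.

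**Figure D1:**
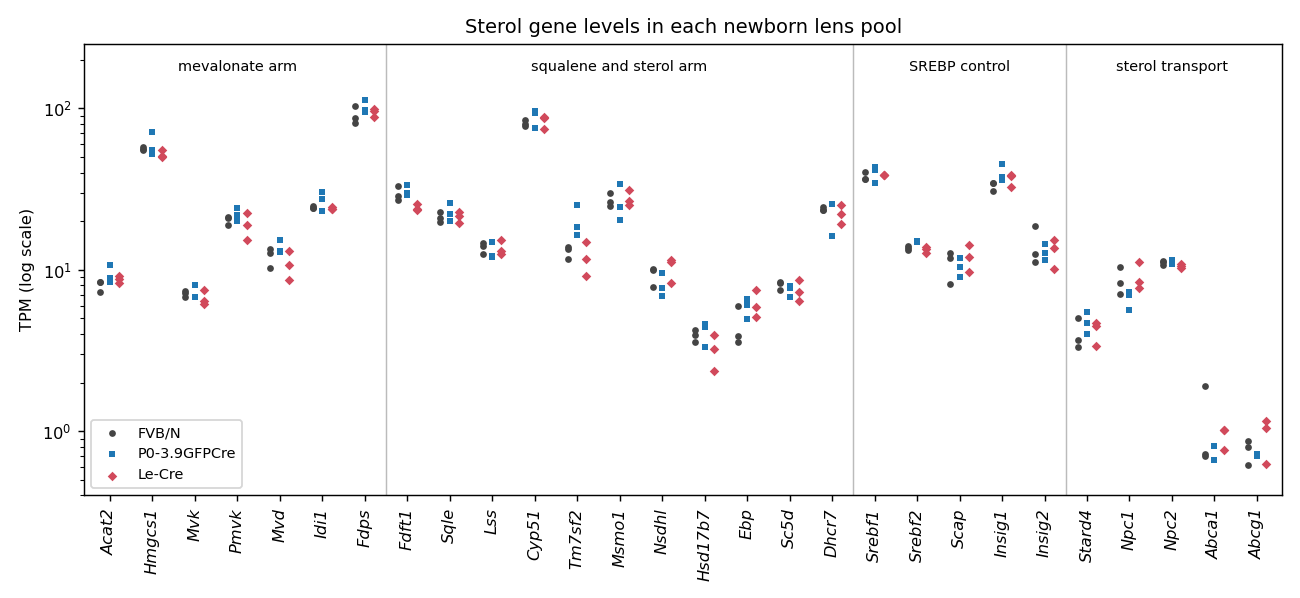
TPM (log scale) of the 28 genes, grouped by role, with 1 point for each of the 3 pools of *FVB/N*, *P0-3.9GFPCre* and *Le-Cre*. *Fdps* and *Cyp51* stand highest, *Abca1* and *Abcg1* lowest at about 1 TPM, and for most genes the points of the 3 lines lie among each other.

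A gene was called when its fold change reached 1.5 and its adjusted p in edgeR's quasi-likelihood test did not exceed 0.05, and by this cutoff 0 of the 28 genes were called in any of the 3 comparisons. Over all tested genes, 0.0643% passed in *Le-Cre* against *FVB/N* (0.045% higher and 0.0193% lower), and 0% passed in *P0-3.9GFPCre* against *FVB/N* and in *Le-Cre* against *P0-3.9GFPCre*. DESeq2 also called 0 of the 28 in each comparison. The comparisons share pools, *FVB/N* in the first and second and each transgenic line in the third, so they are not independent of each other.

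At an unadjusted p under 0.05, 1 of the 28 genes was found in *Le-Cre* against *FVB/N* (all genes, 7.94%), 0 in *P0-3.9GFPCre* against *FVB/N* (6.81%) and 6 in *Le-Cre* against *P0-3.9GFPCre* (7.88%). The median log2 fold change of the 28 was −0.06, 0.02 and −0.06 in the same order, against −0.004, 0.00 and −0.002 over all tested genes. The 95% interval of the fold change lay within 1.5-fold in either direction for 26, 24 and 22 of the 28 genes. The genes outside were *Abcg1* and *Ebp* in every comparison, with *Tm7sf2* and *Nsdhl* in both comparisons that involve *P0-3.9GFPCre* and *Mvd* and *Abca1* in the comparison of the transgenic lines. For these genes a change of 1.5-fold lay within the interval. The intervals of 1, 0 and 6 of the 28 genes excluded no change, in the same order of comparisons.

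**Figure D2:**
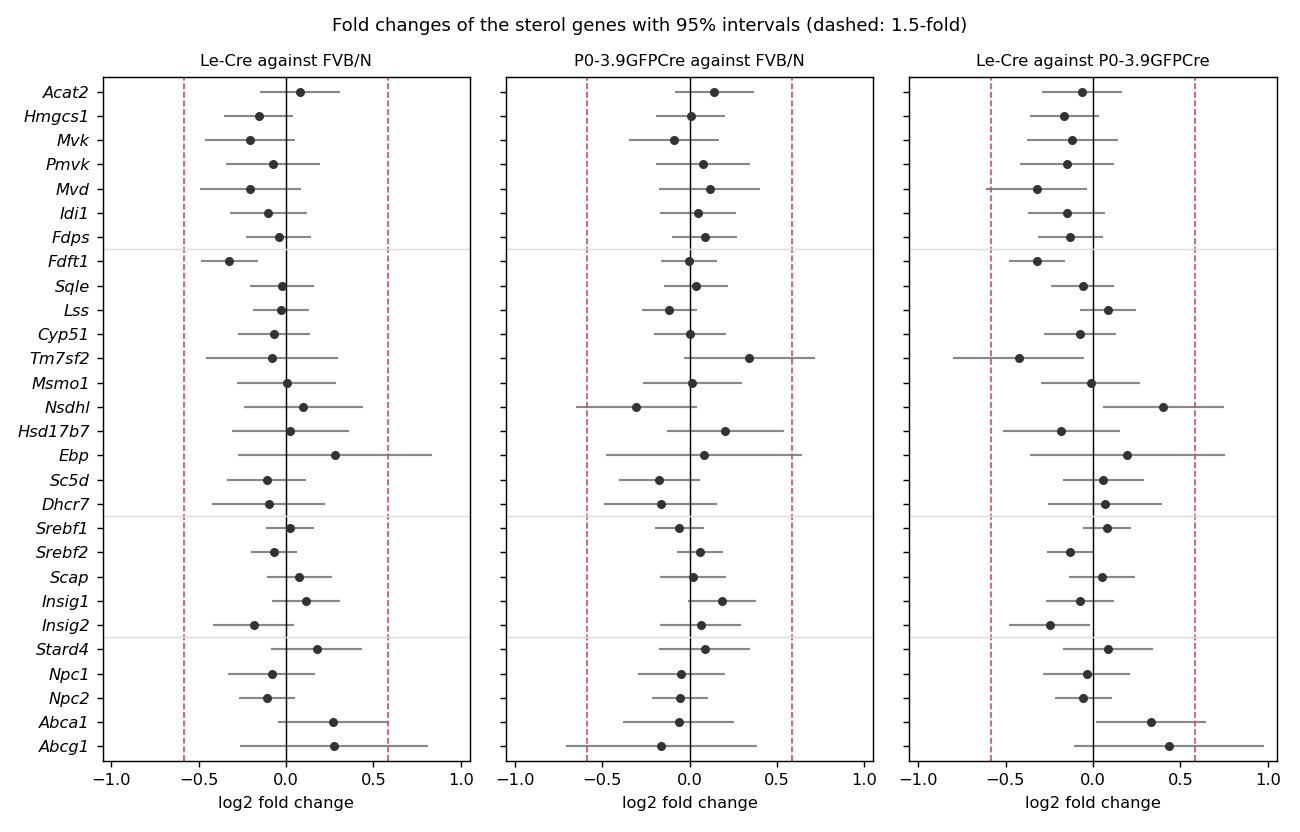
Log2 fold change of the 28 genes in the 3 comparisons, as points with 95% intervals from the fit over 9 pools. Dashed lines mark 1.5-fold, and the *Fdft1* interval, −0.49 to −0.16 in *Le-Cre* against *FVB/N*, is the one in that panel that does not reach 0.

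*Fdft1* encodes squalene synthase, the first enzyme committed to sterols, and lies on chromosome 14 at 63145150 to 63179578 on the minus strand of GRCm38. Its pools held 72.2, 86.4 and 79.2 CPM in *FVB/N*, 83.4, 77.7 and 75.9 CPM in *P0-3.9GFPCre*, and 62.8, 63.2 and 63.8 CPM in *Le-Cre*. The 3 *Le-Cre* pools lay close together and below all 6 other pools. The log2 fold change was −0.32 (SE 0.07, adjusted p = 0.236, edgeR) in *Le-Cre* against *FVB/N* and −0.32 (SE 0.07, adjusted p = 0.378, edgeR) in *Le-Cre* against *P0-3.9GFPCre*. It was −0.00 (SE 0.07) in *P0-3.9GFPCre* against *FVB/N*. DESeq2 gave adjusted p-values of 0.0224 and 0.0415 for the comparisons of *Le-Cre* with *FVB/N* and with *P0-3.9GFPCre*, at folds that stayed under 1.5.

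The *Fdft1* count is uncertain because its exons overlap those of *Ctsb*, a lysosomal protease gene on the opposite strand, and 26.3% of its 51-base stretches also occur in *Ctsb* or in *Gm6781*. Whether the counting used strand is not given in the sources used here. *Ctsb* alone had a log2 fold change of −0.20 (SE 0.08, adjusted p = 0.575, edgeR) in *Le-Cre* against *FVB/N* and −0.04 (SE 0.08) in *Le-Cre* against *P0-3.9GFPCre*. Counts of *Fdft1* summed with both genes, an alternative chosen after the values were seen, gave −0.26 (adjusted p = 0.305, edgeR) and −0.17 (adjusted p = 0.537). A Y-linked covariate, the log2 of the summed Y-linked CPM of each pool, was also entered in the fit. With it, the log2 fold change of *Fdft1* alone in *Le-Cre* was −0.29 (adjusted p = 0.958, edgeR) against *FVB/N*. The summed level of the 5 lens epithelium markers was lower in all *Le-Cre* pools than in all *FVB/N* pools. Of the 5, *Cdh1* (log2 fold change −0.14) and *Pdgfra* (−0.40) had pools that did not overlap, while those of *Foxe3*, *Gja1* and *Pax6* overlapped. The *P0-3.9GFPCre* pools of *Cdh1* (−0.10) and *Pdgfra* (−0.28) also lay below the *FVB/N* pools without overlap. Those of *Foxe3*, *Gja1* and *Pax6* overlapped there too. The part of these markers in the *Fdft1* values was not tested.

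The mevalonate arm had 0 of 7 genes past the cutoff. Over all tested genes, the log2 fold change was above 0 for 49% and below 0 for 51% in *Le-Cre* against *FVB/N*, 50% each way in *P0-3.9GFPCre* against *FVB/N*, and 49.5% and 50.5% in *Le-Cre* against *P0-3.9GFPCre*. The values of this arm were negative for 6 of 7 genes in *Le-Cre* against *FVB/N* (median −0.10), positive for 6 of 7 in *P0-3.9GFPCre* against *FVB/N* (median 0.08) and negative for 7 of 7 in *Le-Cre* against *P0-3.9GFPCre* (median −0.15). When replicate 1 of *P0-3.9GFPCre* was left out, an alternative chosen after the values were seen, the arm was positive for 4 of 7 in *P0-3.9GFPCre* against *FVB/N* (median 0.02) and negative for 7 of 7 in *Le-Cre* against *P0-3.9GFPCre* (median −0.06). Enzymes of the pathway were measured in the same pools and can shift together, so their signs are not independent of each other. Non-overlapping pools occurred below *FVB/N* for 3 of the 28 genes in *Le-Cre*, namely *Fdft1*, *Hmgcs1* and *Mvk* (all genes, 7.03%), and above *FVB/N* for 0 (all genes, 6.46%). In *P0-3.9GFPCre* they occurred above *FVB/N* for 1 of the 28, *Insig1* (all genes, 6.02%), and below for 0 (all genes, 5.94%).

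*Hmgcs1* held 169, 170 and 173 CPM in *FVB/N*, 201, 161 and 153 CPM in *P0-3.9GFPCre*, and 149, 155 and 156 CPM in *Le-Cre*. All *Le-Cre* pools lay below the *FVB/N* pools, and the *P0-3.9GFPCre* pools spread across both. The log2 fold change in *Le-Cre* against *FVB/N* was −0.16 (SE 0.09, adjusted p = 0.726, edgeR).

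*Mvk*, the mevalonate kinase, held 10.97, 10.5 and 10.6 CPM in *FVB/N*, 11.3, 9.11 and 9.70 CPM in *P0-3.9GFPCre*, and 9.07, 8.39 and 10.4 CPM in *Le-Cre*. The highest *Le-Cre* pool lay just under the lowest *FVB/N* pool. The log2 fold change was −0.21 (SE 0.12, adjusted p = 0.724, edgeR).

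*Mvd*, the decarboxylase that makes isopentenyl diphosphate, held 20.5, 21.4 and 17.3 CPM in *FVB/N*, 23.2, 20.3 and 20.6 CPM in *P0-3.9GFPCre*, and 13.8, 19.7 and 17.9 CPM in *Le-Cre*. The *Le-Cre* pools lay below those of *P0-3.9GFPCre*, with replicate 1 lowest of all, and overlapped those of *FVB/N*. Between the transgenic lines the log2 fold change was −0.32 (SE 0.13, adjusted p = 0.571, edgeR). *Fdps* held 75.3, 84.3 and 83.6 CPM in *FVB/N*, 94.5, 81.5 and 82.2 CPM in *P0-3.9GFPCre*, and 76.8, 73.3 and 86.1 CPM in *Le-Cre*, with overlap of all lines.

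The other 3 genes of this arm, the thiolase *Acat2*, the kinase *Pmvk* and the isomerase *Idi1*, had log2 fold changes between −0.15 and 0.14 in the 3 comparisons. *Acat2* shares 38.9% of its 51-base stretches with *Acat3* and *Tcp1*, so its counts are uncertain. *Idi1* and *Fdps* share 25.2% and 26.1% with pseudogenes or overlapping genes, and each held at least 99.8% of the counts summed with the partners in the tables. For *Idi1* that sum covered *Gm13502* and *Gm35570*, while *Gm48574*, which overlaps it on the opposite strand, was not analysed here, so its counts remain uncertain. *Hmgcs1* shares 11.5%, mainly with *Gm48342*, which was not analysed here.

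In the squalene and sterol arm, *Tm7sf2*, a sterol reductase, held 9.64, 8.73 and 9.01 CPM in *FVB/N*, 10.3, 14.9 and 9.56 CPM in *P0-3.9GFPCre*, and 7.68, 8.07 and 10.2 CPM in *Le-Cre*. Replicate 2 of *P0-3.9GFPCre* stood above all other pools, and the lines otherwise overlapped. The log2 fold change in *Le-Cre* against *P0-3.9GFPCre* was −0.42 (SE 0.17, adjusted p = 0.556, edgeR), and the leave-one-out values ran from −0.56 to −0.21. *Tm7sf2* overlaps *Vps51* on the same strand, and with both summed the value was −0.21 (adjusted p = 0.531, edgeR).

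*Nsdhl*, a sterol dehydrogenase gene on the X chromosome, held 20.2, 15.4 and 20.8 CPM in *FVB/N*, 17.8, 13.1 and 14.8 CPM in *P0-3.9GFPCre*, and 16.5, 21.2 and 22.9 CPM in *Le-Cre*. The *Le-Cre* pools overlapped those of both other lines. The log2 fold change in *Le-Cre* against *P0-3.9GFPCre* was 0.40 (SE 0.16, adjusted p = 0.545, edgeR), and with the Y-linked covariate it was 0.40 (adjusted p = 0.767).

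*Lss* held 68.2, 76.3 and 69.1 CPM in *FVB/N*, 70.7, 64.4 and 62.0 CPM in *P0-3.9GFPCre*, and 66.9, 71.6 and 71.0 CPM in *Le-Cre*. All 3 lines overlapped. Its log2 fold changes were −0.03 (SE 0.07) in *Le-Cre* and −0.12 (SE 0.07) in *P0-3.9GFPCre* against *FVB/N*, and the intervals, as folds, ran from 0.878 to 1.09 and from 0.827 to 1.03. *Cyp51* held 104, 105 and 120 CPM in *FVB/N*, 124, 110.0 and 96.2 CPM in *P0-3.9GFPCre*, and 104, 99.9 and 110 CPM in *Le-Cre*, also with overlap of all lines.

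The remaining 6 genes of this arm, the squalene epoxidase *Sqle*, the methyl oxidase *Msmo1*, the reductases *Hsd17b7* and *Dhcr7*, the isomerase *Ebp* and the desaturase *Sc5d*, had 0 genes at an unadjusted p under 0.05 in any comparison. Their log2 fold changes ran from −0.18 for *Hsd17b7* to 0.28 for *Ebp*. *Ebp*, on the X chromosome and with 2.41 to 4.95 CPM, was the member that varied most between pools of a line, with a log2 SD of 0.33 against a median of 0.18 over all genes.

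**Figure D3:**
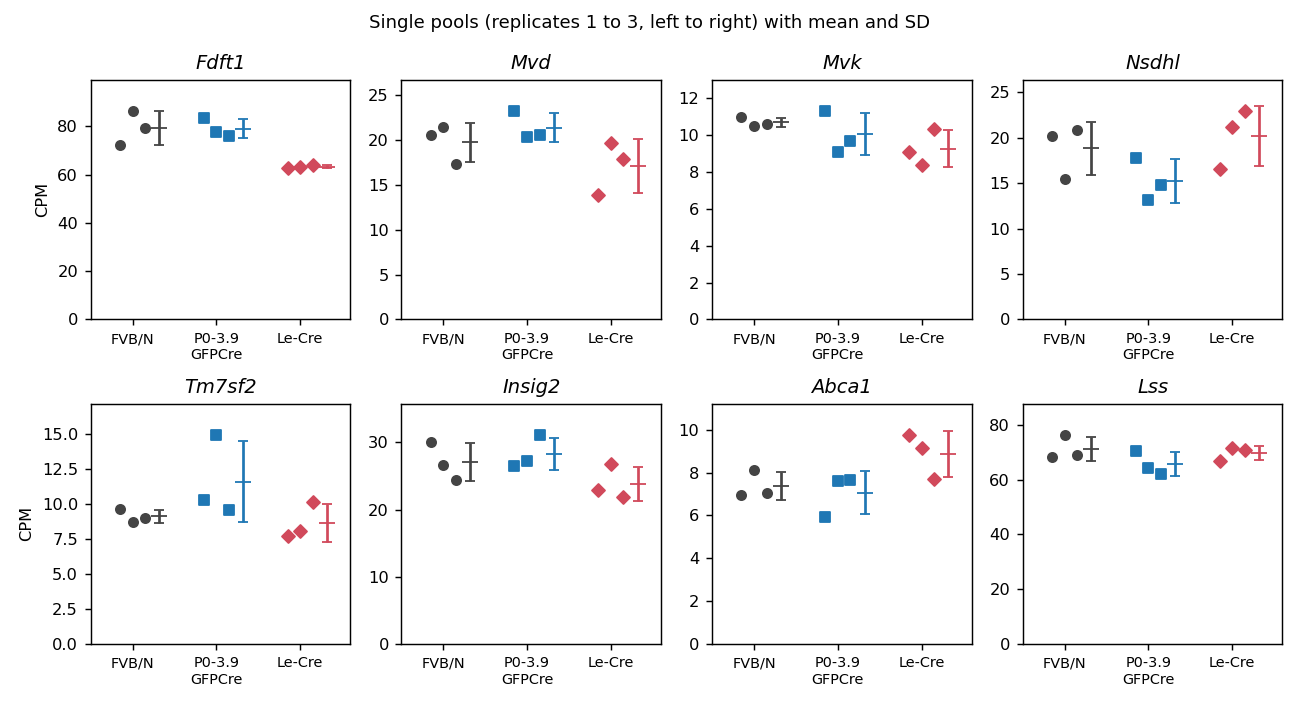
CPM of 8 genes in each pool, with the mean and SD of each line to the right of its points and each axis starting at 0. The *Fdft1* points of *Le-Cre*, 62.8 to 63.8 CPM, lie below all others, whereas 1 *P0-3.9GFPCre* pool of *Tm7sf2* stands alone at 14.9 CPM.

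All 5 SREBP control genes varied less between pools of a line than the median gene, as did most of the 28 genes. That median covers all tested genes, also those of low count, whereas the 5 had a higher mean TPM than 89.8% to 96.5% of all genes. The spread was not compared with that of genes of like level. *Srebf1* held 59.98, 55.9 and 56.7 CPM in *FVB/N*, 56.7, 54.5 and 54.6 CPM in *P0-3.9GFPCre*, and 61.4, 56.4 and 57.4 CPM in *Le-Cre*. *Srebf2* held 62.0, 64.8 and 66.6 CPM in *FVB/N*, 64.8, 67.6 and 69.3 CPM in *P0-3.9GFPCre*, and 62.8, 59.99 and 61.5 CPM in *Le-Cre*. Both had a log2 SD within lines of 0.05, below the median of all genes. The *Srebf2* pools of *Le-Cre* lay below those of *P0-3.9GFPCre*, as for 3 of the 28 genes in that comparison (all genes, 7.37%), with a log2 fold change of −0.13 (SE 0.06, adjusted p = 0.646, edgeR).

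*Insig1* held 84.4, 82.6 and 76.9 CPM in *FVB/N*, 102, 88.3 and 87.3 CPM in *P0-3.9GFPCre*, and 78.4, 88.7 and 96.6 CPM in *Le-Cre*. The *P0-3.9GFPCre* pools lay above those of *FVB/N*, and the *Le-Cre* pools overlapped both. The log2 fold change in *P0-3.9GFPCre* against *FVB/N* was 0.18 (SE 0.09, adjusted p = 0.741, edgeR).

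*Insig2* held 30.1, 26.7 and 24.4 CPM in *FVB/N*, 26.6, 27.3 and 31.1 CPM in *P0-3.9GFPCre*, and 22.9, 26.7 and 21.9 CPM in *Le-Cre*. All lines overlapped, and the log2 fold change between the transgenic lines was −0.25 (SE 0.11, adjusted p = 0.604, edgeR). *Scap*, the escort protein of the SREBPs, had log2 fold changes between 0.02 and 0.08.

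Among the transport genes, *Abca1*, the pump that loads cholesterol onto apolipoproteins, held 6.96, 8.13 and 7.04 CPM in *FVB/N*, 5.92, 7.61 and 7.68 CPM in *P0-3.9GFPCre*, and 9.75, 9.17 and 7.69 CPM in *Le-Cre*. The *Le-Cre* pools lay above those of *P0-3.9GFPCre*, the lowest by a narrow margin, and overlapped those of *FVB/N*. *Abca1* was the only one of the 28 genes with this order (all genes, 6.74%), and its log2 fold change was 0.33 (SE 0.14, adjusted p = 0.609, edgeR). The efflux pump *Abcg1*, the soluble carrier *Stard4* and the lysosomal proteins *Npc1* and *Npc2* had log2 fold changes between −0.16 and 0.44, with *Abcg1* at both ends and 0 genes at an unadjusted p under 0.05.

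The pools of 1 line were also compared with each other. In replicate 1 of *P0-3.9GFPCre*, 16 of the 18 enzymes had their highest value of the 3 pools of that line and 0 had their lowest, whereas 33.1% of all tested genes were highest there. The exceptions were *Acat2* and *Tm7sf2*. Over all 9 pools, 10 of the 18 enzymes were highest in this pool. The count of 16 was the same under 4 other scalings and was 13 by TPM. In replicate 3 of *Le-Cre*, 11 of the 18 enzymes were the highest of that line and 1 was the lowest, or 7 and 4 with total count scaling. Each *FVB/N* pool was the highest of its line for 6 of the 18. For *FVB/N* replicates 1, 2 and 3 in turn, these counts were 6, 8 and 4 with total count scaling and 7, 10 and 1 by TPM.

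The size of the difference was modest. The median enzyme was 0.24 higher on the log2 scale in this pool than in the mean of the other 2 pools, and the median of all tested genes was 0.003 higher. The largest differences were those of *Msmo1*, 41.0 against 29.8 CPM, and of *Dhcr7*, 25.6 against 18.6 CPM. *Insig1* was at 102 against 87.8 CPM, but only 2 of the 5 SREBP control genes and 1 of the 5 transport genes were higher there, and *Abca1* was at 5.92 against 7.64 CPM.

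This pool also had the lowest crystallin share of the 9, 39.1%, and the lowest sum of lens fibre markers, 239850 CPM against 264940 to 290910 CPM in the others. Their part in the enzyme values was not tested. Without this pool, the median log2 fold change of the 18 enzymes went from 0.03 to −0.05 in *P0-3.9GFPCre* against *FVB/N* and from −0.10 to −0.03 in *Le-Cre* against *P0-3.9GFPCre*. In *Le-Cre* against *FVB/N*, 13 of 18 enzymes were negative at a median of −0.07. This comparison uses the pool only in the gene filter, the scaling and the estimate of the spread. Its median was −0.069 without the pool. The median of this comparison was −0.03, −0.04 and −0.11 without *Le-Cre* replicate 1, 2 and 3 in turn, with 11, 13 and 15 of 18 enzymes negative. It was −0.06, −0.09 and −0.04 without the *FVB/N* replicates in the same order.

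**Figure D4:**
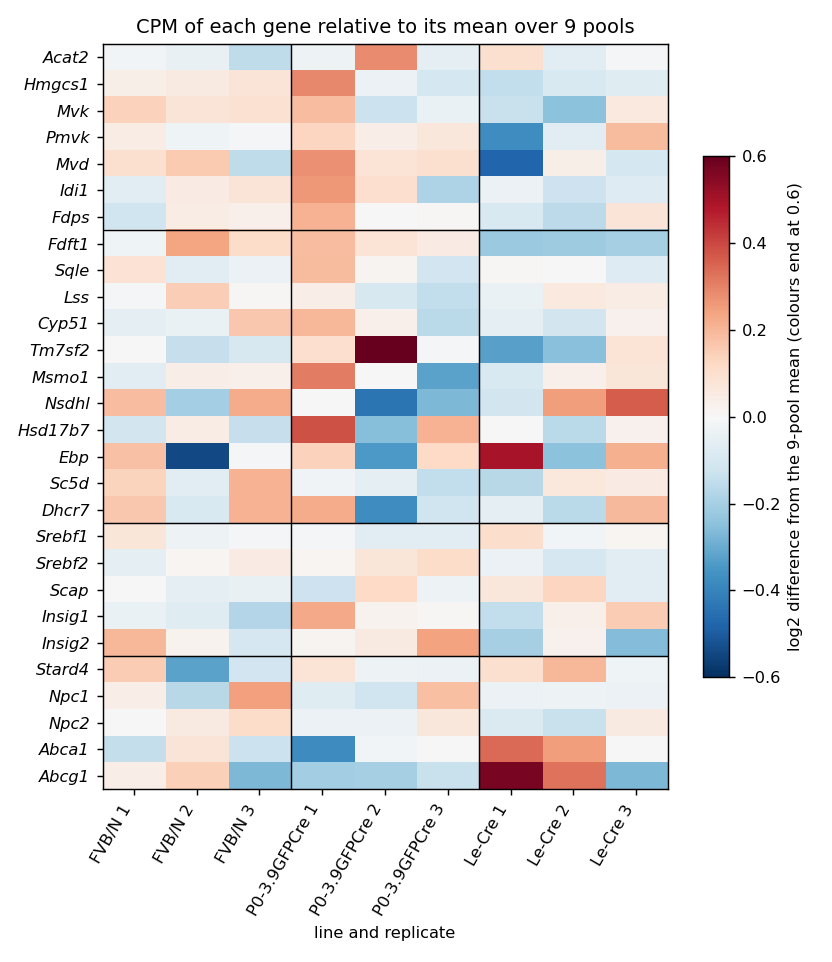
Log2 CPM of the 28 genes (rows, by role) in the 9 pools (columns), relative to each gene's mean over the pools. Red marks higher and blue lower, and the column of *P0-3.9GFPCre* replicate 1 is red for 15 of the 18 enzyme rows above the second horizontal line.

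Of 38 further genes of the pathway and its neighbours, 36 were tested and 0 passed the cutoff in any comparison. The sterol-storage, efflux and LXR list had 8 of 9 genes tested and the oxysterol list 3 of 4, with *Nr1h3* and *Ch25h* too low. At an unadjusted p under 0.05, 3 of the 36 were higher and 2 lower in *Le-Cre* against *FVB/N* (all genes, 3.6% and 4.35%). In *P0-3.9GFPCre* against *FVB/N*, 4 were higher and 1 lower (3.41% and 3.41%), and in *Le-Cre* against *P0-3.9GFPCre*, 1 was higher and 1 lower (3.63% and 4.25%).

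Among the 11 fatty acid targets of SREBP, the values did not share a direction. *Me1*, which supplies NADPH, had log2 fold changes of 0.27 (SE 0.07, adjusted p = 0.322, edgeR) in *Le-Cre* and 0.20 (SE 0.07, adjusted p = 0.651) in *P0-3.9GFPCre* against *FVB/N*. *Acaca*, the acetyl-CoA carboxylase, had −0.22 (SE 0.06, adjusted p = 0.33, edgeR) and −0.17 (SE 0.06, adjusted p = 0.656). *Fasn*, the fatty acid synthase, had −0.12 (SE 0.05, adjusted p = 0.591, edgeR) and −0.03 (SE 0.05). The desaturase gene *Scd1* held 1.55, 1.12 and 0.655 CPM in *FVB/N*, 3.00, 1.74 and 2.20 CPM in *P0-3.9GFPCre*, and 1.78, 2.38 and 1.76 CPM in *Le-Cre*. Both transgenic lines lay above the *FVB/N* pools at this low level, with log2 fold changes of 1.06 (SE 0.35, adjusted p = 0.637, edgeR) in *P0-3.9GFPCre* and 0.83 (SE 0.35, adjusted p = 0.601, edgeR) in *Le-Cre*.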

How the data were processed

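Polyadenylated RNA was sequenced as single-end 51-base reads. The authors used Trimmomatic 0.36 for trimming, GSNAP for mapping to GRCm38 and RSEM 1.3.0 for quantification, per the labels and the study's methods. The annotation and strand setting are not given in the sources used here. The deposited expected counts are RSEM's estimated reads per gene, without normalization. The deposited TPM values were scaled by RSEM for length and library size and were used only for levels between genes.

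Expected counts were rounded and tested in R 4.3.3 with edgeR 4.0.16 (TMM, filterByExpr, glmQLFit and glmQLFTest) with all 9 pools in 1 fit and Benjamini-Hochberg adjustment over 15557 genes. DESeq2 1.42.0 was an alternative, with other scalings, filters, a replicate block, a Y-linked covariate, exclusion of crystallins and leaving out each pool. The Y-linked covariate was the log2 of the summed Y-linked CPM plus 0.1. This scale sets pools near 0 far from the rest and is not the share of male mice. CPM values are TMM-scaled. With 3 pools against 3, an exact permutation test cannot go below p = 0.1, so none was used. In simulated counts of *Le-Cre* against *FVB/N* over 15235 genes, 18 of 100 genes changed 1.5-fold and 55 of 100 changed 2-fold were recovered, and 4 of 77 calls were false. Genes set at 1.5-fold lie on the cutoff itself, so many miss it whatever their spread. The changed genes were drawn from all tested genes, with a median SE of 0.147 in this comparison against 0.105 for the 28 genes. The recovery therefore does not measure the sensitivity for the 28.

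Values in every pool are given for members with an unadjusted p under 0.05 in any comparison, those with non-overlapping pools against *FVB/N* at a log2 change of at least 0.2, the 3 highest by TPM, *Lss*, and the *Srebf* and *Insig* genes. The members and gene lists were chosen with earlier results of these data known. The title and the description of 1 *FVB/N* pool carry different numbers, and that of the title was used. Same-numbered samples shared little deviation on average (mean r of 0.03 over 9 pairs), and the main fit did not pair them. The summed Y-linked, lens epithelium and pigmented tissue markers nevertheless ran in the same order in every line, with replicate 2 highest and replicate 3 lowest. Retina sums were also highest in replicate 2 of every line, whereas the other marker sums shared no order. The mean r therefore cannot decide whether the numbers pair pools, and a replicate block was run as an alternative. Gene positions are from GENCODE on GRCm38. Single values of some further pathway genes are not reported here.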

Additional observations from a re-analysis of the deposited data

How the results depend on the processing

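The count of 0 of the 28 genes called held in all 3 comparisons under every alternative run, with the replicate block and without each pool. Under the replicate block, 2 genes of the whole table were called in *Le-Cre* against *FVB/N*, against 10 without it, and 0 in the other comparisons. The count over all genes in *Le-Cre* against *FVB/N* was 131 with no filter on low counts, 49 with DESeq2, 5 with a mean of at least 10 counts and 0 with the Y-linked covariate. In *P0-3.9GFPCre* against *FVB/N* it was 0, with 93 without a filter and 3 with DESeq2, and in *Le-Cre* against *P0-3.9GFPCre* it was 0, with 123 without a filter, 35 with DESeq2 and 31 from the compared pools alone. Without each pool in turn it ran from 0 to 1, from 0 to 14 and from 0 to 0 in the same order, and the 14 calls of the second comparison came from leaving out replicate 2 of *FVB/N*. Dropping replicate 2 of *P0-3.9GFPCre* gave 3 calls there, and dropping replicate 3 of *FVB/N* gave 1. The median of the 28 genes without each pool ran from −0.12 to −0.01 in *Le-Cre* against *P0-3.9GFPCre*, from −0.08 to −0.02 in *Le-Cre* against *FVB/N* and from −0.02 to 0.04 in *P0-3.9GFPCre* against *FVB/N*, where it was below 0 without replicate 1 of *P0-3.9GFPCre*. The median of the mevalonate arm ran from −0.20 to −0.06, from −0.17 to −0.07 and from 0.02 to 0.12 in the same order. Signs changed with the Y-linked covariate for *Tm7sf2* (0.032) and *Lss* (0.037) in *Le-Cre* against *FVB/N* and for *Fdft1* (0.012) in *P0-3.9GFPCre* against *FVB/N*, and with upper quartile scaling for the last (0.00053). The cause was not tested. Leaving out 1 pool turned these log2 fold changes. In *Le-Cre* against *FVB/N*, the ranges were −0.11 to 0.010 for *Fdps*, −0.11 to 0.0043 for *Cyp51*, −0.023 to 0.23 for *Nsdhl*, −0.055 to 0.026 for *Lss* and −0.014 to 0.057 for *Srebf1*. In *P0-3.9GFPCre* against *FVB/N*, they were −0.067 to 0.062 for *Fdft1*, −0.12 to 0.082 for *Hmgcs1*, −0.087 to 0.093 for *Cyp51*, −0.0087 to 0.15 for *Insig2* and −0.13 to 0.053 for *Abca1*. In *Le-Cre* against *P0-3.9GFPCre*, they were −0.16 to 0.019 for *Cyp51* and −0.15 to 0.0041 for *Insig1*. *Fdft1* in *Le-Cre* against *FVB/N* stayed between −0.38 and −0.26 without each pool, and its adjusted p was 0.0224 with DESeq2 and 0.043 without a filter among a range up to 0.958.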
